A study of Mus musculus with 2 samples.

Results

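Ependymal cells were described here as 288 nuclei of the mouse hippocampus, among 20594 nuclei that passed the filter, in a single-nucleus RNA sequencing study of tauopathy and the nucleic acid sensor ZBP1. Ependymal cells are the multiciliated epithelium that lines the brain ventricles. Their motile cilia beat through axonemal dynein arms on a ring of doublet microtubules around a central pair, and RFX factors and FOXJ1 are the known regulators of the genes that build them. The beating moves cerebrospinal fluid over the ventricle wall, next to which the choroid plexus epithelium secretes that fluid.

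The nuclei were chosen on their own counts. Nuclei with fewer than 600 unique molecular identifiers (UMIs, the counted RNA molecules), fewer than 300 detected genes or a mitochondrial share above 5% were left out. The sum of *Dnah12*, *Ccdc180*, *Wdr49*, *Foxj1*, *Dthd1* and *Tmem212* had to reach 10 per 10000 UMIs with at least 3 of these 6 genes detected. The choroid plexus genes *Tmem72*, *Slc4a5* and *Kl* and the oligodendrocyte genes *St18* and *Prr5l* each had to sum to less than 10 per 10000 UMIs. Levels of these genes, and of genes that go with them, in the chosen nuclei against other nuclei are therefore descriptions and carry no test.

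The study compared 2 genotypes, each as 1 library of pooled hippocampi from 5 males aged 9 months. PS19 mice carried the human P301S tau transgene, which the mouse prion promoter drives, with wild-type *Zbp1*, and PZKO mice were their littermates with the same transgene and no functional *Zbp1*. Every animal carried the tau transgene, so no group without it was sequenced, and the mouse reference has no entry of its own for the human transgene. The values are deposited UMI counts per gene and nucleus, and since each genotype is a single library, differences between genotypes have no replicate check and were not tested. Intervals are 95% intervals that cover counting error only, since nuclei of a library are not replicates, and a genotype cannot be told apart from its library.

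The PS19 library held 11469 nuclei and 116488513 UMIs, and the PZKO library 10920 nuclei and 171167884 UMIs. Between the libraries 47 cell barcodes were shared, none of them (0) among the ependymal nuclei. *Zbp1*, the deleted gene, was counted 4 times in PS19 and 3 times in PZKO ependymal nuclei, which is too few to check the genotype within them. In all other nuclei *Zbp1* had 105 UMIs in PS19 and 47 in PZKO. After scaling to the summed UMIs of those nuclei, the log2 ratio of PZKO over PS19 was -1.75 (-2.28 to -1.24).

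The rule found 167 ependymal nuclei among 10466 in PS19, or 1.596% (exact binomial interval 1.36% to 1.85%), and 121 among 10128 in PZKO, or 1.19% (0.992% to 1.43%). The share was lower in PZKO by 0.42 on the log2 scale. The 2 intervals overlapped, which does not by itself show that the shares were alike. Nuclei of the choroid plexus, found by a similar rule, numbered 282 in PS19 and 103 in PZKO. Whether the dissection took different amounts of ventricle wall was not tested, and the counts do not separate it from the genotype. Under a strict filter, with 1000 UMIs and 500 genes as the lower limits and 1% as the mitochondrial limit, 41 PS19 and 44 PZKO ependymal nuclei were left, at shares of 0.536% and 0.516%. The difference in share thus almost ended under this filter, at -0.05 on the log2 scale. The loss of nuclei came with the ependymal mitochondrial share, whose median was 1.93% in PS19 and 1.42% in PZKO against 0.495% and 0.337% in all other nuclei.

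The border of the rule was thinly filled. The nuclei just inside it had 10.4, 11.3 and 12.6 UMIs of the 6 genes per 10000 in PS19 and 11.7, 14.1 and 14.5 in PZKO. Just outside lay nuclei with 9.97, 9.38 and 8.43 in PS19 and 9.59, 9.32 and 8.71 in PZKO. The median ependymal nucleus reached 63.5 in PS19 and 70.3 in PZKO. All 6 genes were detected in 70 PS19 and 60 PZKO nuclei, and 5 of the 6 in a further 75 and 53. The choroid plexus and oligodendrocyte limits removed 5 nuclei in each library, and 22 PS19 and 3 PZKO nuclei met the marker rule but failed the quality filter.

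The label fitted the markers that the rule had not used. All 16 ependymal markers outside the rule were detected in both libraries, at a summed level of 93.6 UMIs per 10000 in PS19 and 99.4 in PZKO. The most abundant of them was *Cfap299*, a gene of motile cilia and flagella. The same sum was 15.7 and 16.1 in choroid plexus nuclei, 1.32 and 1.10 in astrocyte nuclei, and 0.929 and 0.568 in all other nuclei together. These markers share their nuclei with the rule genes, so their level describes the population and is no test of it.

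**Figure D1:**
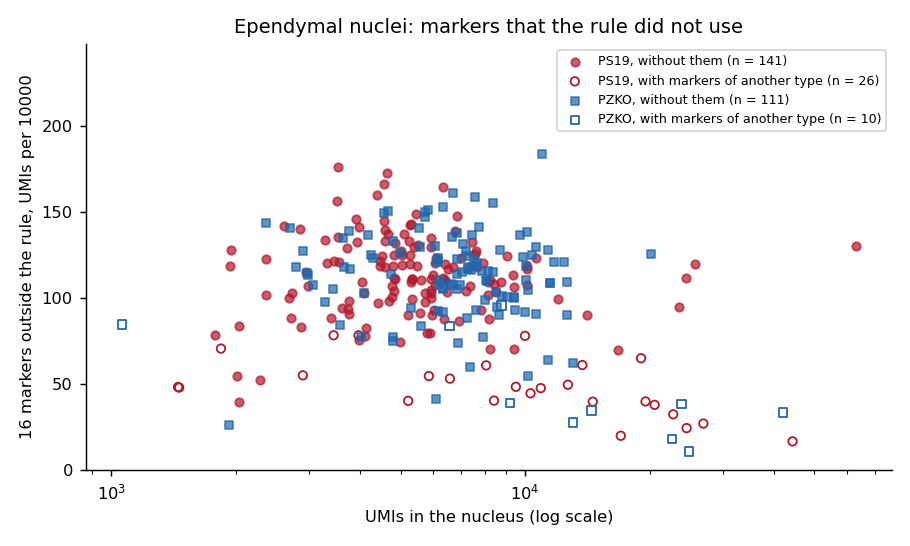
Each point is an ependymal nucleus, with its UMIs on a log axis and the UMIs of 16 markers outside the rule per 10000 UMIs on the vertical axis, for PS19 (circles) and PZKO (squares). Open symbols are the 26 PS19 and 10 PZKO nuclei that carry markers of another cell type, most of which lie low, while the filled symbols of both libraries overlap.

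Depth was equalised to compare how often a gene was seen. The median ependymal nucleus held 5486 UMIs in PS19 and 7208 in PZKO. After thinning to 2000 UMIs, which left out 6 PS19 and 2 PZKO nuclei, *Cfap299* was found in 96.9% (92.9% to 99.0%) of PS19 and 99.2% (95.4% to 99.98%) of PZKO nuclei. Without thinning the shares were 97.6% and 98.3%. *Hydin*, a central pair protein, was found in 87.6% and 91.6% after thinning, and in 98.2% and 97.5% before. In oligodendrocyte nuclei, which should lack cilium genes and held a median of 3365 and 4424 UMIs, thinned shares were 0.538% and 0.458% for *Cfap299* and 0.466% and 0.0764% for *Hydin*. Both cilium genes were thus found far more often in ependymal than in oligodendrocyte nuclei. The rule itself selects for this contrast, so it does not measure the level that free RNA gives. For each gene the intervals of the 2 libraries overlapped.

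*Foxj1*, the transcription factor that switches on the motile cilium programme, was sparser. It had 181 UMIs in 94 of 167 PS19 nuclei and 111 UMIs in 67 of 121 PZKO nuclei, a log2 ratio of -0.36 (-0.71 to -0.01). The thinned shares were 29.8% (22.9% to 37.5%) in PS19 and 17.6% (11.3% to 25.7%) in PZKO, with overlapping intervals, against 1.40% and 1.11% in oligodendrocyte nuclei. Unthinned, *Foxj1* was seen in 56.3% and 55.4% of ependymal nuclei. Its ependymal level was only 2.73-fold in PS19 and 1.82-fold in PZKO over that of choroid plexus nuclei. In all other nuclei the log2 ratio of *Foxj1* was -1.15 (-1.37 to -0.93). Choroid plexus nuclei, which were fewer in PZKO, held 135 of the 430 UMIs there in PS19 and 83 of the 292 in PZKO. Within choroid plexus nuclei the ratio was 0.23 (-0.18 to 0.63), within astrocyte nuclei -0.78 (-1.33 to -0.25) and within oligodendrocyte nuclei -0.88 (-1.29 to -0.47). The part of the number of choroid plexus nuclei in the -1.15 was not tested.

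RNA of other cell types was present in these nuclei, at levels that differed between cell types. The part of this RNA in the results below was not tested. The 15 choroid plexus markers were all detected, at 8.81 per 10000 UMIs in PS19, where *Ttr* led, and 4.82 in PZKO, where *Calml4* led. In choroid plexus nuclei that sum was 320 and 314. The 10 astrocyte markers, led by *Lsamp*, were all detected and summed to 36.01 in PS19 and 23.3 in PZKO, but the median nucleus had only 10.3 and 11.03. The 10 neuronal markers, led by *Syt1*, were all detected and summed to 18.1 and 20.1, with medians of 5.04 and 5.86. All 9 oligodendrocyte markers were detected, at 5.28 and 5.20 (led by *Mbp* in PZKO), and all 9 microglial markers at 2.68 and 1.77 (led by *Cx3cr1*).

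Markers of other cells that resemble or neighbour the ependyma had low sums, and how much RNA these cells gave was not tested. The 8 tanycyte markers summed to 0.840 and 0.799, with *Slc17a8* and *Fgf10* at 0 in PS19 and *Rax* and *Gpr50* at 0 in PZKO, and *Col23a1* was their most abundant gene. The 9 markers of neural stem cells and neuroblasts summed to 0.644 and 0.457, led by *Egfr*, with *Mki67* at 0 in both libraries and *Igfbpl1*, *Top2a* and *Eomes* also at 0 in PZKO. Of 7 endothelial markers, 6 were detected in PS19, where *Cdh5* was at 0 and *Flt1* led, and 7 in PZKO, where *Slco1a4* led, at 0.196 and 0.145. All 6 mural markers were detected, at 0.302 (led by *Pdgfrb*) and 0.477 (led by *Vtn*). Fibroblast markers were detected for 6 of 7 genes in PS19 (*Slc6a13* at 0, *Dcn* the most abundant) and 4 of 7 in PZKO (*Col1a1*, *Slc6a13* and *Lama1* at 0, *Col1a2* the most abundant), at 0.179 and 0.156. Precursor markers of oligodendrocytes were detected for 6 of 7 genes with *Neu4* at 0, at 0.473 (led by *Pdgfra*) and 0.176 (led by *Cacng4*).

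**Figure D2:**
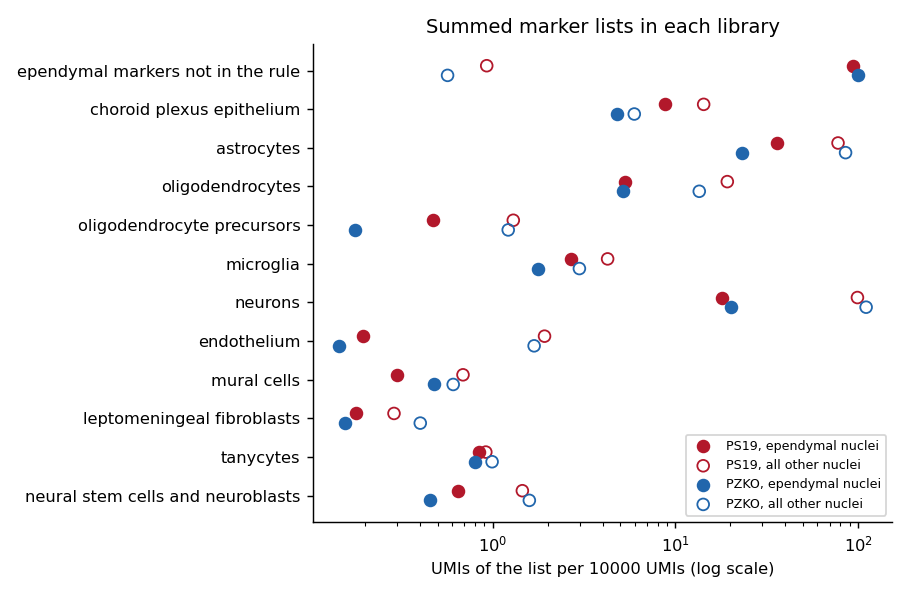
The summed UMIs of each marker list per 10000 UMIs, on a log axis, in ependymal nuclei (filled) and all other nuclei (open) of PS19 (red) and PZKO (blue), 1 pooled library each. Ependymal markers stand at 93.6 and 99.4 against 0.929 and 0.568, and every other list is lower in ependymal nuclei than in the other nuclei of the same library.

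A minority of nuclei held much of that RNA. In 26 PS19 nuclei (15.6%) and 10 PZKO nuclei (8.26%) the astrocyte, neuronal or oligodendrocyte list reached 50, or the microglial list 20, per 10000 UMIs. These limits were chosen after the values had been seen. Such nuclei were deep, with medians of 10149.5 and 13763.5 UMIs against 5309 and 6962 in the rest, and held 26.6% and 17.3% of all ependymal UMIs. Results are therefore also given without them, on 141 PS19 and 111 PZKO nuclei.

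The 15 genes with the highest level over all other nuclei, outside the rule, were few in known function. Levels are UMIs per 1000000 UMIs of the summed nuclei (CPM), and of 7357 genes with at least 50 UMIs, 12.7% were at least 4-fold higher in ependymal nuclei than in all other nuclei of both libraries. *Unc5cl*, an UNC5-like death domain protein, led at 630 CPM in PS19 and 719 in PZKO, which was 1216-fold and 1707-fold over the other nuclei. It lies on chromosome 17 at chr17:48454901-48539714 of GRCm38 and had a level of 0 in choroid plexus nuclei of both libraries. *Sntn*, which encodes sentan at the tip of motile cilia, stood at 179 and 200.3 CPM, 608-fold and 1125-fold over the other nuclei, and was also at 0 in choroid plexus nuclei.

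The other 13 were protein-coding genes or long noncoding RNAs. In choroid plexus nuclei *Fam216b* had 14 UMIs in PS19 and 4 in PZKO, *Zfp474* 9 and 4, *Pih1h3b* 5 and 2, and *Frmpd2* 4 and 1, so not all of the 15 were at 0 there. *Gm19301*, *Zfp474*, *Fam216b*, *Gm12695*, *Pih1h3b*, *Gm49896*, *1700012P22Rik*, *Frmpd2* and *Lrrc71* lay between 519-fold (*Lrrc71* in PS19) and 2147-fold (*Zfp474* in PZKO). Annotated as antisense RNAs were *Gm47888*, *Gm10714*, *1700020G17Rik* and *3300002A11Rik*, whose reads may include those of overlapping genes, since the sources used here do not state how strand was counted. *3300002A11Rik* was seen in 166 of 167 PS19 and 121 of 121 PZKO ependymal nuclei, at 1828 and 1761 CPM. *1700012P22Rik* was instead seen in only 17 and 16 nuclei, so a high ratio to other nuclei did not mean that most ependymal nuclei carried the RNA.

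Genes of the motile cilium filled the population as a whole. Across 4 lists of axonemal parts, 83 of 89 genes in the files had at least 50 UMIs, and 79 of the 83 were at least 4-fold over other nuclei in both libraries, with a median of 38.5-fold in PS19 and 59.6-fold in PZKO. The contrast is the one the rule used, so the count is a description. The members below 4-fold in at least 1 library were *Spag1*, *Rsph3a*, *Gas8* and *Nme7*. *Nme7*, which also acts in microtubule organisation outside motile cilia, was lowest at 1.70-fold and 1.68-fold.

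**Figure D3:**
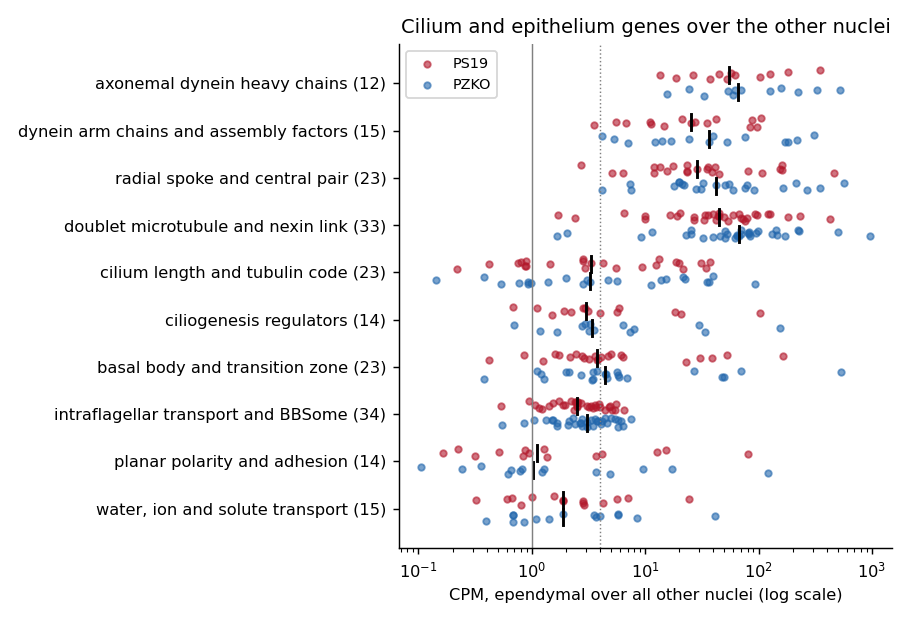
Each point is a gene with at least 50 UMIs, placed by its CPM in ependymal nuclei over its CPM in all other nuclei of the same library (log axis), for PS19 (red) and PZKO (blue), with black bars at list medians, a solid line at 1-fold and a dotted line at 4-fold. The axonemal lists lie mostly above 10-fold, while intraflagellar transport, planar polarity and transport genes have medians below 4-fold.

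Several of these promoters held a short DNA word bound by RFX factors. The X-box is an inverted repeat to which RFX factors bind, and GTTGCCA, 1 arm of it, was searched on both strands from 250 bases before to 50 bases after the start in RefSeq's promoter table (GRCm38.p6). It occurred in 17 of 71 motile cilium genes with an entry (23.9%), in 6 of 31 genes of intraflagellar transport and the BBSome (19.4%), and in 1358 of 27025 genes overall (5.02%). The longer GTTGCCATG, which contains GTTGCCA, occurred in 2 of the 71 (2.82%) and in 0.877% overall. The forkhead core TGTTTAC occurred in 4 of the 71 (5.63%) and in 4.05% overall. Of the 25 genes highest over other nuclei 18 had an entry, and 2 of these held GTTGCCA (11.1%) and 3 TGTTTAC (16.7%). Among the 5 rule genes with an entry none (0) held GTTGCCA and 1 held TGTTTAC, and *Foxj1* was not analysed here. A match is a run of letters and not evidence of binding.

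The stretches below show the match in the 5 axonemal genes with the most UMIs among those whose match lay before a start. Capitals mark GTTGCCA or its reverse complement, each stretch runs 5′ to 3′ on the gene's strand, and all are from RefSeq, GRCm38.p6. In *Cfap44* (chr16:44394768-44394797, plus strand) the match shown began 20 bases before the start and another, not shown, 130 bases before it. The match began in *Hydin* (chr8:110266952-110266981, plus strand) 14 bases before the start, in *Dnah7b* (chr1:46066679-46066708, plus strand) 163, in *Kif9* (chr9:110476956-110476985, plus strand) 27 and in *Cfap74* (chr4:155409192-155409221, plus strand) 37. *Kif9* and *Cfap74* each have a second start in the table for which the match lies just after it.
Cfap44: ggacgttgctaTGGCAACcgcagtaaacgg
Hydin: tgcggttgctgTGGCAACagatggtaacaa
Dnah7b: acaggagcacaGTTGCCAcccacccttaag
Kif9: gcaggcttcctGTTGCCAtggcgactgtgt
Cfap74: agcagccttccGTTGCCAtggagctgcgcg

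The genotype comparison asked what the loss of *Zbp1* went with in ependymal nuclei under tau overexpression. Ependymal UMIs summed to 1226191 in PS19 and 963502 in PZKO, and each gene was scaled to its library's sum. Over 7357 genes the median log2 ratio of PZKO over PS19 was -0.01, with quartiles of -0.27 and 0.22. At least 2-fold lower in PZKO were 168 genes (2.28%), and at least 2-fold higher 76 genes (1.03%), which is the background for the counts over lists below. Of these, 14 lower genes and 1 higher gene were also past 2-fold in all other nuclei. Single nuclei weighed on both ends, since 12 of the 168 and 25 of the 76 had over 25% of their UMIs in 1 nucleus of the higher library. These counts depended on the processing. Without the nuclei that carried markers of another type 109 genes were lower and 52 higher, and with Scrublet's doublets removed 85 and 51. Under the strict filter the counts were 80 and 79, and after subtraction of free RNA 458 and 134. The free RNA share was an estimate, 22.99% in PS19 and 28.7% in PZKO, so the subtraction was unequal between the libraries.

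No motile cilium gene was past 2-fold between the libraries (0 of 83). Against background shares of 2.28% lower and 1.03% higher, this count is no result about these genes. Their median log2 ratio was 0.11 (0.07 to 0.15), with 60 genes above 0 and 23 below, where 49.1% of all genes were above 0. Without the nuclei with markers of another type the median was 0.05, after subtraction of free RNA 0.19 and under the strict filter 0.25. The range ran from -0.40 to 0.69. In all other nuclei the same genes, at far lower levels, had a median of -0.32.

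The 12 axonemal dynein heavy chains, the motors of the cilium, were all above 0, with a median of 0.24 (0.18 to 0.31). That median was 0.17 over the same genes without nuclei with markers of another type, and 0.38 under the strict filter. *Dnah12*, an inner arm chain and rule gene, had 2286 UMIs in PS19 and 2077 in PZKO, or 1864 and 2156 CPM, a log2 ratio of 0.21 (0.12 to 0.30). *Dnah3*, also an inner arm chain, had 548 and 671 UMIs and the highest ratio of those described, 0.64 (0.47 to 0.81). *Dnah5* and *Dnah11*, which encode outer arm chains, had 648 and 637 and 1294 and 1170 UMIs, at ratios of 0.32 (0.16 to 0.48) and 0.20 (0.09 to 0.32). None of the chains reached 2-fold, which at the background shares is no result about them. *Dnah7a* and *Dnah7b* are near copies whose reads can be split between them, at ratios of 0.24 and 0.20.

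Lists of the other axonemal parts had medians close to 0, with single members farther away. The 15 dynein arm and assembly genes had a median of 0.07 (-0.05 to 0.19). For the 23 radial spoke and central pair genes it was 0.07 (0.00 to 0.14), and for the 33 doublet and nexin link genes 0.09 (0.01 to 0.17). Over the same genes without nuclei with markers of another type, these medians were 0.010, 0.024 and 0.034. Of the radial spoke and central pair genes, 9 had intervals wholly above 0 and 1 wholly below. The farthest members were *Rsph14*, with 78 and 99 UMIs and a ratio of 0.69 (0.25 to 1.14), and *Rsph4a*, a radial spoke head protein, with 271 and 161 UMIs and a ratio of -0.40 (-0.69 to -0.12). *Spag16*, a central pair protein, had 2803 UMIs in PS19 and 2510 in PZKO, a ratio of 0.19 (0.11 to 0.27). *Hydin* had 1284 and 1060 UMIs, a ratio of 0.07 (-0.05 to 0.19). *Wdr63*, an intermediate chain of an inner arm, had 773 and 637 UMIs, a ratio of 0.07 (-0.08 to 0.22). *Cfap44*, which tethers an inner arm to the doublet, had 1482 and 1281 UMIs, a ratio of 0.14. The interval of *Hydin* bounds a change in its RNA to less than 0.2 on the log2 scale, by counting error alone.

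Lists of the machinery that builds cilia had medians slightly above 0. In lists of this size the background shares leave few or no genes past 2-fold, so the counts of 0 below are no result about these lists. All 34 genes of intraflagellar transport, which carries cargo along the cilium, and of the BBSome were tested, 0 were past 2-fold, and their median was 0.11 (0.01 to 0.20). Members ran from -0.95 for *Kif17*, a kinesin motor with 54 and 22 UMIs, to 0.80 for *Bbs2*, a BBSome subunit with 44 and 60 UMIs. *Ift88*, a core transport subunit, had 524 UMIs in PS19 and 455 in PZKO, a ratio of 0.14 (-0.04 to 0.33). The 23 tested basal body and transition zone genes had a median of 0.17 (0.07 to 0.27) and 0 past 2-fold. They ran from -0.85 for *Cep63* to 0.56 for *Nphp4*. Without nuclei with markers of another type, the medians over the same genes were 0.11 for intraflagellar transport and the BBSome and 0.074 for the basal body list. *Deup1*, which amplifies centrioles in multiciliated cells, had 46 and 44 UMIs, at 52.5-fold and 69.3-fold over other nuclei. *Ttll6*, a tubulin polyglutamylase, was 163-fold and 530-fold over other nuclei, with 389 and 276 UMIs and a ratio of -0.15 (-0.38 to 0.08).

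Of 20 ciliogenesis regulators 14 were tested, 0 were past 2-fold and the median was 0.13 (-0.00 to 0.27). That median was 0.15 over the same genes without nuclei with markers of another type, and 0.32 under the strict filter. *Rfx3*, an X-box factor, had 1013 UMIs in PS19 and 966 in PZKO, a ratio of 0.28 (0.15 to 0.41). *Rfx2* had 262 and 229 UMIs, 20.6-fold and 30.0-fold over other nuclei. *Myb*, which acts early in multiciliated cell formation, had 89 and 88 UMIs, 103-fold and 155-fold over other nuclei. *Trp73*, the p73 gene that is required for multiciliated cells, had 99 and 108 UMIs, a ratio of 0.47 (0.07 to 0.88). *Sox9* lay below 0, with 177 and 109 UMIs, a ratio of -0.35 (-0.71 to 0.00). The regulators did not share 1 direction.

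The 14 planar polarity and adhesion genes had a median of -0.14 (-0.27 to -0.01), a value that turned to 0.09 under the strict filter. *Celsr1*, a planar polarity cadherin, had 109 and 88 UMIs, a ratio of 0.04. *Cd24a*, a surface protein of ependymal cells, had 105 and 53 UMIs, a ratio of -0.64, and was 81.2-fold and 122-fold over other nuclei. The 15 transport genes had a median of -0.08 (-0.22 to 0.07), which was 0.44 under the strict filter and, over the same genes, 0.021 without nuclei with markers of another type. *Aqp4*, the water channel, had 251 and 187 UMIs, a ratio of -0.08 (-0.36 to 0.20), and was found after thinning in 24.2% and 35.3% of nuclei against 9.83% and 7.83% of oligodendrocyte nuclei. *Slc2a1*, the GLUT1 glucose carrier, had 231 and 122 UMIs, a ratio of -0.57 (-0.90 to -0.25). *Scnn1a*, a subunit of the epithelial sodium channel, had 79 and 86 UMIs, a ratio of 0.47, and was 24.5-fold and 41.4-fold over other nuclei. *Slc1a3*, a glutamate carrier, had a ratio of -0.58 that became 0.02 without nuclei with markers of another type.

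Tubulin modifiers and motors of cilium length showed 1 gene past 2-fold among 23, close to the background shares of 2.28% lower and 1.03% higher. That gene was *Tuba1a*, an alpha tubulin abundant in neurons, with 197 UMIs in PS19 and 66 in PZKO, a ratio of -1.23 (-1.65 to -0.82), and -0.72 in all other nuclei. *Ttll3*, a tubulin glycylase of motile cilia, had 835 and 723 UMIs, a ratio of 0.14 (-0.01 to 0.29). *Agbl4*, a tubulin deglutamylase, had 2617 and 2360 UMIs, a ratio of 0.20 (0.12 to 0.28). Their median was -0.05 (-0.17 to 0.07).

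**Figure D4:**
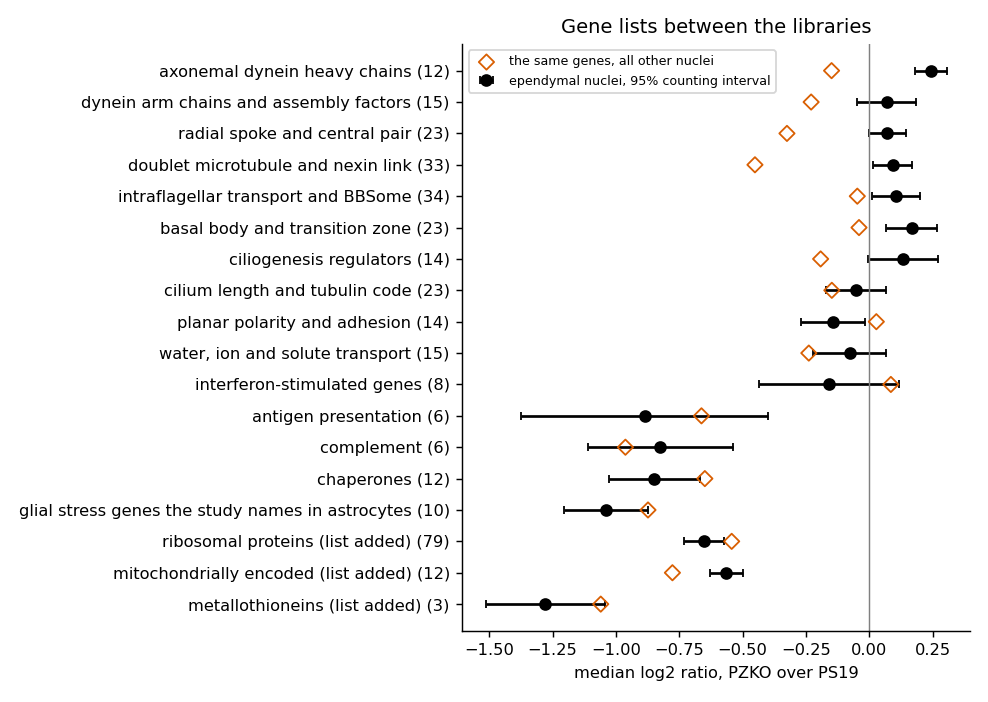
Median log2 ratio of PZKO over PS19 for each gene list in ependymal nuclei (black, with 95% counting intervals) and for the same genes in all other nuclei (orange), with the number of genes tested in parentheses. Cilium lists lie between -0.05 and 0.24, while chaperone, glial stress, antigen presentation, complement, ribosomal, mitochondrial and metallothionein lists lie below -0.5 in both kinds of nuclei.

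Glial stress genes were lower in PZKO on their median. The 10 tested genes are ones that the study names in astrocytes of these libraries, a choice that is not independent of these samples. Of them 10 were below 0 and 5 were past 2-fold lower, against 2.28% of all genes. The median of the list was -1.04 (-1.21 to -0.87). *Apoe*, the lipid carrier of glia, had 1566 UMIs in PS19 and 474 in PZKO, or 1277 and 492 CPM, a ratio of -1.38 (-1.53 to -1.23). *Clu*, the apolipoprotein clusterin, had 1307 and 457 UMIs, a ratio of -1.17 (-1.32 to -1.01). *Vim*, an intermediate filament of ependymal cells and other glia, had 311 and 99 UMIs, a ratio of -1.30 (-1.64 to -0.97). *Ubb*, a ubiquitin gene, and *Ifitm3*, an interferon-induced membrane protein, were the others past 2-fold, at -1.26 and -1.35.

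The same genes were lower in all other nuclei as well, with a median of -0.87, so the difference was not particular to ependymal nuclei. For *Apoe* the ratio there was -1.08, for *Clu* -1.10 and for *Vim* -1.26. After thinning, *Apoe* was found in 83.2% (76.5% to 88.6%) of PS19 and 58.0% (48.6% to 67.0%) of PZKO ependymal nuclei, and in 77.1% and 61.1% of oligodendrocyte nuclei, so its detection was close to that in another cell type of the same library. The part of free RNA in its ratio was not tested. Without thinning *Apoe* was seen in 97.0% and 93.4% of ependymal nuclei. The astrocyte marker list moved with these genes in ependymal nuclei, with 5 of 7 tested members below 0, 1 of them past 2-fold, and a median of -0.52 that was 0.25 without nuclei with markers of another type. The median of the glial stress genes without those nuclei was -0.99. *Gfap* was found in 21.7% and 18.5% after thinning, against 21.5% and 14.4% in oligodendrocyte nuclei, and its ratio was -0.55 (-0.91 to -0.20).

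All 12 tested chaperones were below 0 and 3 were past 2-fold lower, against 2.28% of all genes. The chaperone median was -0.85 (-1.03 to -0.67), against -0.65 in all other nuclei. *Hsp90aa1*, a cytosolic HSP90, had 613 UMIs in 132 PS19 nuclei and 197 UMIs in 94 PZKO nuclei, a ratio of -1.29 (-1.53 to -1.06). In all other nuclei its ratio was -0.66. *Hspa8*, the constitutive HSP70, had 174 and 65 UMIs, a ratio of -1.07, and *Cryab*, a small heat shock protein, 49 and 10 UMIs, a ratio of -1.94. Under the strict filter the median of the list was -0.64.

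Among 6 tested antigen presentation genes 3 were past 2-fold lower, against 2.28% of all genes. The median of the 6 was -0.89 (-1.37 to -0.40), with a range over the alternatives from -1.08 to -0.47. *B2m*, the light chain of class I molecules, had 58 and 22 UMIs, a ratio of -1.05 (-1.83 to -0.32), and *H2-D1*, a heavy chain, 57 and 21. *Cd74*, the invariant chain of class II molecules, had 51 and 3 UMIs, but 82.4% of its PS19 UMIs lay in 1 nucleus. Of 6 tested complement genes 3 were past 2-fold lower, against the same 2.28% of all genes. The complement median was -0.83 (-1.11 to -0.54), and -0.14 under the strict filter. *Csmd1*, a complement regulator that neurons also express, held most of the list's UMIs, with 4660 in PS19 and 3806 in PZKO, a ratio of 0.06 (-0.01 to 0.12), so the summed level of the list was 4187 and 4177 CPM. *C3*, the central complement protein, had 94 UMIs in 36 PS19 nuclei and 30 UMIs in 19 PZKO nuclei, a ratio of -1.30 (-1.94 to -0.69), and was 17.5-fold and 18.2-fold over other nuclei. Without nuclei with markers of another type the medians over the same genes were -1.02 for antigen presentation and -0.69 for complement. *C1qa* and *C1qb*, which microglia make, had 62 and 23 and 43 and 15 UMIs, at levels close to those of all other nuclei (1.03-fold and 1.19-fold for *C1qa*). The microglial marker list, which holds *C1qa*, moved with these genes, with 4 of 4 tested members below 0, 1 of them past 2-fold, and a median of -0.68 (-1.10 to -0.26). Its part in these ratios was not tested.

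Interferon and cell death genes had few tested members, and at the background shares 0 past 2-fold is no result about them. Of 8 tested interferon-stimulated genes 0 were past 2-fold (*Ifitm3*, at -1.35, was counted with the glial stress genes), and the median was -0.16 (-0.44 to 0.12), with a range over the alternatives from -0.48 to 0.070. *Ifi27* had 103 and 58 UMIs, a ratio of -0.48 (-0.97 to -0.00). Among 15 partners of ZBP1 and cell death genes only 4 had 50 UMIs, 0 were past 2-fold, and the median was 0.12 (-0.23 to 0.47), which turned to -0.021 without nuclei with markers of another type. *Adar*, the RNA editing enzyme, had 54 and 35 UMIs, a ratio of -0.28 (-0.93 to 0.36), and *Ripk1*, a kinase of cell death signalling, only 17 and 12 UMIs. *Mapt*, the mouse tau gene, had 160 and 103 UMIs, a ratio of -0.29 (-0.66 to 0.08). *Prnp*, whose promoter drives the transgene, had 442 and 241 UMIs, a ratio of -0.53 (-0.76 to -0.30), with -0.44 in all other nuclei. Whether transcripts of the transgene were counted as either gene was not tested.

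Lists added after the values had been seen moved the same way in both kinds of nuclei. Of 79 tested ribosomal protein genes 78 were below 0 and 12 past 2-fold lower, against 2.28% of all genes. The ribosomal median was -0.65 (-0.73 to -0.57), and -0.54 in all other nuclei. Pseudogene copies can share the reads of ribosomal protein genes. The 12 tested mitochondrially encoded genes had a median of -0.56 (-0.63 to -0.50) and -0.78 in all other nuclei. *Mt1* and *Mt2*, metal-binding metallothioneins, had 553 and 179 and 198 and 48 UMIs, at ratios of -1.28 and -1.70, with -1.16 and -1.06 in all other nuclei. The part of cytoplasmic or free RNA in these ratios was not tested. For the 11 tested long noncoding RNAs of the nucleus the median was 0.03 (-0.12 to 0.18), which turned to -0.21 under the strict filter, and *Malat1*, the most counted of them, had a ratio of -0.05.

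The genes at the low end of the ratios were of several kinds. *Ttr*, the transthyretin gene of the choroid plexus, had 614 UMIs in 154 PS19 nuclei and 56 UMIs in 46 PZKO nuclei, a ratio of -3.11 (-3.53 to -2.71), next to -2.80 in all other nuclei. After thinning, *Ttr* was found in 62.1% and 11.8% of ependymal nuclei and in 72.0% and 15.2% of oligodendrocyte nuclei, so its detection was not above that in a cell type that should lack the gene. The part of free RNA in its ratio was not tested. *Pabpc1*, a poly(A) binding protein, had 239 UMIs in 89 PS19 nuclei and 67 UMIs in 44 PZKO nuclei, a ratio of -1.49 (-1.90 to -1.09), and -0.76 in all other nuclei. *Dach1*, a transcription factor, had 70 and 14 UMIs, a ratio of -1.97 (-2.92 to -1.13), and -1.72 without nuclei with markers of another type. In all other nuclei *Dach1* stood at -0.01.

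Other low genes rested on few nuclei. *Gpc5*, an astrocyte glypican, had 508 UMIs in 17 PS19 nuclei and 46 UMIs in 12 PZKO nuclei, a ratio of -3.12 that turned to 2.05 without nuclei with markers of another type. *Grik1*, a kainate receptor, had 46 UMIs in 6 and 8 UMIs in 5 nuclei, and its ratio of -2.18 turned to 1.76. *Il1rapl2*, a synaptic receptor-like gene on the X chromosome, had 95 UMIs in 8 and 6 UMIs in 2 nuclei, and -3.64 turned to 0.18. *Mertk*, a phagocytic receptor, moved from -2.17 to -1.33 without those nuclei, but to 0.42 once Scrublet's doublets were removed. *Pex5l* moved from -1.57 to -0.38 without those nuclei.

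High ratios often lay in a handful of nuclei. *Sspo*, which encodes SCO-spondin of the subcommissural organ, had 16 UMIs in 12 PS19 nuclei and 107 UMIs in 15 PZKO nuclei, with 85.05% of the latter in 1 nucleus. *Pax3*, a dorsal patterning factor, had 3 UMIs in PS19 and 47 in PZKO, in 3 and 7 nuclei, and 55.3% of the PZKO UMIs lay in 1 nucleus. *Foxp2*, a forkhead factor, was spread more widely, with 17 UMIs in 10 PS19 nuclei and 84 UMIs in 25 PZKO nuclei, at most 10.7% of them in 1 nucleus, a ratio of 2.65 (1.89 to 3.50). Its level in ependymal nuclei was 0.233-fold that of other nuclei in PS19 and 1.19-fold in PZKO.

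*Gm17167*, a noncoding transcript, had 26 UMIs in 16 and 74 UMIs in 44 nuclei, a ratio of 1.86 (1.19 to 2.56), next to 1.34 in all other nuclei. *4930544I03Rik*, a long noncoding RNA, had 21 UMIs in 12 and 62 UMIs in 21 nuclei, a ratio of 1.91 that was -0.19 under the strict filter. *Grm8*, a glutamate receptor that choroid plexus nuclei carried at 808 and 860 CPM, had 36 and 116 UMIs, a ratio of 2.04 (1.49 to 2.62), with 33.6% of the PZKO UMIs in 1 nucleus. *Edil3* and *Cntn5* turned from 1.57 and 1.36 to -0.24 and -0.56 without nuclei with markers of another type. *Dpp10*, *Unc5d*, *Mgat4c* and *Cntnap2*, genes best known in neurons, had over 30% of their PZKO UMIs in 1 nucleus, with 58.0% for *Dpp10* and 52.7% for *Mgat4c*.

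**Figure D5:**
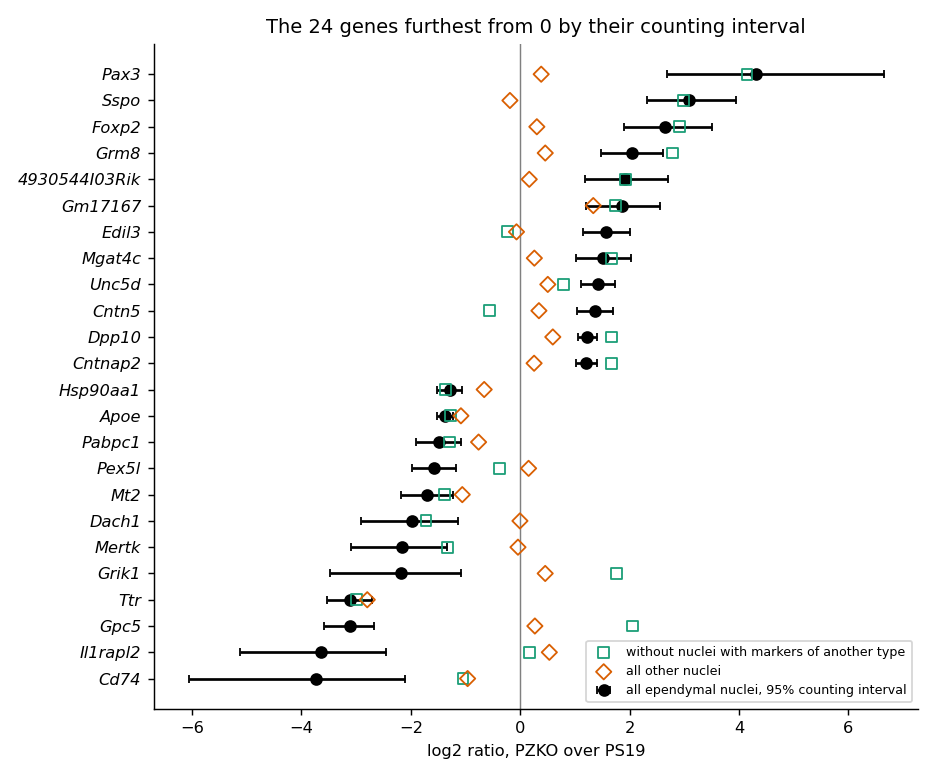
Log2 ratio of PZKO over PS19 in ependymal nuclei for the 12 lowest and the 12 highest genes, with 95% counting intervals (black), without nuclei that carry markers of another type (green) and in all other nuclei (orange), on summed UMIs of 1 library per genotype. *Ttr*, *Apoe* and *Cd74* have orange points below 0 as well, while *Gpc5*, *Grik1*, *Edil3* and *Cntn5* have green points on the other side of 0.

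Of the ependymal markers outside the rule, 1 of 16, *Mia*, was past 2-fold between the libraries. At background shares of 2.28% lower and 1.03% higher, this count is no result about these markers. *Mia*, a secreted protein, had 65 UMIs in 30 PS19 nuclei and 15 UMIs in 11 PZKO nuclei. Its ratio was -1.77 (-2.68 to -0.94), and -1.63 in all other nuclei. *Rarres2*, the chemerin gene, had 229 and 117 UMIs, a ratio of -0.62 (-0.95 to -0.29), with -1.01 in all other nuclei, and was found after thinning in 29.8% and 24.4% of ependymal against 2.01% and 0.764% of oligodendrocyte nuclei. The other 14 markers lay within 2-fold, and the list had a median of 0.05 (-0.04 to 0.14), which turned to -0.038 without nuclei with markers of another type.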

How the data were processed

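The authors sequenced 10x Genomics 3′ libraries and counted reads on mm10 with Cell Ranger, which the submitters' processing notes give as 7.0.1 and the matrix headers as 8.0.1. The deposited values are whole-number UMI counts per gene and nucleus, with no normalization. The steps that the methods describe after counting (SoupX, a filter on nuclei, DoubletFinder) were not found in these counts. The methods state both that hippocampi were pooled and that individual hippocampi were processed separately, and the counts carry no animal label.

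Nuclei that met the rule were summed per library and scaled to the library's sum (CPM). Ratios have exact conditional binomial intervals, levels exact Poisson and shares Clopper-Pearson intervals (95%), and medians an interval from the counting errors of their genes. A gene counted as tested from 50 ependymal UMIs on, both libraries summed. Comparison nuclei were choroid plexus (*Tmem72*, *Slc4a5*, *Kl* at 10 per 10000 UMIs or more, 2 detected), astrocyte (*Aqp4*, *Gjb6*, *Slc39a12*, *Fgfr3*, *Acsbg1* at 10, 3 detected) and oligodendrocyte nuclei (5 marker genes summed, at 20). Nuclei that reached the minimum of the ependymal rule were left out of the oligodendrocyte nuclei. No doublets were removed in the main values. Named genes were the rule and exclusion genes, *Zbp1*, *Mapt*, *Prnp*, the 15 highest over other nuclei, the 12 lowest and 12 highest ratios by the interval end nearest to 0, and per list those with the most UMIs or past 2-fold. Some items are not reported here. Further list members were named after their values had been seen. Members, lists and alternatives were chosen with earlier results of these data known. Gene positions came from GENCODE M21 (GRCm38). Intervals were tested on simulated Poisson counts, the model that they assume. The simulation did not include the clumping of UMIs in single nuclei, so it does not show how the intervals do under it. Python 3.11.15, scipy 1.17.1, scanpy 1.11.5, leidenalg 0.10.2, edgeR 4.0.16 (scaling only) and DESeq2 1.42.0 (size factors only) were used.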

Additional observations from a re-analysis of the deposited data

How the results depend on the processing

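No paired analysis was possible because each genotype is 1 library. Of 98 values of the comparisons under alternatives, 70 stayed within their counting interval (or within 1.5 times a count), 28 moved and 0 changed direction. TMM and DESeq2 scaling, the rule at 20 per 10000 UMIs or with 4 genes, no filter on nuclei and thinning moved none of them (0). The causes of the shifts below were not tested, except that each limit on UMIs also changes which genes are tested.

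With at least 20 UMIs 537 genes were 2-fold lower in PZKO and 222 higher, and the glial stress median was -0.74. With at least 100 UMIs 63 were lower and 29 higher, and the complement median was -0.51. With no limit 1533 were lower and 1134 higher, and the glial stress median was -0.57. As a mean over nuclei the glial stress median was -0.80. After subtraction of free RNA, whose estimated share was larger in PZKO than in PS19, 458 genes were lower and 134 higher. The motile cilium median was then 0.19.

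With Scrublet's doublets removed 85 genes were lower, the motile cilium median was 0.045 and the glial stress median -0.87. *Gpc5* turned to 3.25, *Mertk* to 0.42, *Grik1* to 1.72, *Edil3* to -0.28 and *Cntn5* to -1.19.

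Under the strict filter (1000 UMIs, 500 genes, 1% mitochondrial) the shares were 0.536% and 0.516% and their log2 ratio -0.053, 80 genes were lower, and the medians were 0.25 for motile cilium, -0.79 for glial stress, -0.64 for chaperones and -0.14 for complement genes. The planar polarity median turned to 0.093, *Zfp474* to -0.026, *4930544I03Rik* to -0.19 and *Dpp10* to -0.10.

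An alternative chosen after seeing the data left out nuclei with markers of another type. The PS19 share was then 1.351%, 109 genes were lower, the motile cilium median was 0.047 and the glial stress median -1.22 over genes with 50 UMIs in the nuclei left, or -0.99 over the same 10 genes as before. *Gpc5* turned to 2.05, *Il1rapl2* to 0.18, *Grik1* to 1.76, *Edil3* to -0.24 and *Cntn5* to -0.56.

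Of 673 values of single genes and further lists, 578 stayed, 81 moved and 14 changed direction. Those 14 are the turns named above, each of a value whose main interval excluded 0. Medians whose interval held 0 could also change sign and are not among the 14. Under the strict filter the transport median went from -0.08 to 0.44 and that of nuclear long noncoding RNAs from 0.03 to -0.21. With 167 and 121 nuclei of 1 library each, the intervals hold no spread between animals.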

Other observations

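Ependymal nuclei were not uniform. The 252 nuclei without markers of another type fell into 4 clusters, whose leading genes are given as descriptions only, because the clusters were made from the same counts. Cluster 1 (62 PS19 and 39 PZKO nuclei) was led by *Zfp804b*, with 63.4% of its nuclei positive against 4.64% of the rest, and by *Lmx1a*, a roof plate transcription factor, with 50.5% against 1.99%. *Rspo2*, an amplifier of Wnt signals, was found in 41.6% against 3.31%. *Grm8* and *Sspo*, 2 of the genes at the high end of the ratios between libraries, were also among its leading genes by fold, but *Grm8* was found in 10.9% against 1.99% of nuclei and *Sspo* in 12.9% against 7.28%, and 1 nucleus held 85.05% of the *Sspo* UMIs of PZKO.

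Cluster 2 (35 and 27 nuclei) was led by *Lhfp* (54.8% against 7.89%), *P3h2*, *Plcl1* and the tight junction gene *Cldn14* (37.1% against 7.89%), and held more *Cd44*, a hyaluronan receptor (43.5% against 13.7%). *Nrxn3*, a neurexin, and *Meis2*, a homeobox factor, were also higher in cluster 2, in 95.2% against 51.1% and 77.4% against 34.2% of nuclei. Cluster 4 (15 and 14 nuclei) was led by *Synpr* (44.8% against 23.3%), *Nrg1*, a neuregulin (93.1% against 54.7%), and *Fhod3*, a formin (82.8% against 42.6%). *Nrxn3* and *Meis2* were higher there too, at folds of 3.04 and 2.37 against 3.96 and 3.80 in cluster 2. Cluster 3 (29 and 31 nuclei) had the lowest depth, with a median of 5119.5 UMIs, and folds of at most 4.39, for *Tox*. Each cluster held nuclei of both libraries. The clusters were not named, and their sizes were not compared between genotypes.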
